A study of Mus musculus with 25 samples.

Results

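The muscle acetylcholine receptor and the proteins that place it at the synapse were examined in the chromatin of primary myoblasts through 10 genes. These are the receptor subunit genes Chrna1, Chrnb1, Chrnd, Chrne and Chrng, and the genes Musk, Rapsn, Dok7, Lrp4 and Colq. They were taken by name as genes of the neuromuscular junction (NMJ), 10 of 26182 mouse genes that have a curated RefSeq transcript, and were located in the assembly mm10 (GRCm38). No measured value entered this choice, although it was made with earlier results of the same data known.

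The study asked how Spin1, a reader of histone H3 trimethylated at lysine 4 (H3K4me3), acts in skeletal muscle. It includes 22 RNA-seq libraries and 3 ChIP-seq libraries, of which the Spin1 and the H3K4me3 peak lists were used. The RNA-seq libraries were not analysed here, so that no value on transcription stands beside the peaks. Both peak lists come from primary myoblasts, cultured muscle precursor cells obtained by preplating from limb muscle of C57BL/6 mice (C57BL/6 N in the study's methods) at an age of 10 days. No gene was deleted in these cells and no treatment was given. Chromatin was precipitated with a custom antibody against Spin1 or with a commercial antibody that the sample title names H3K4me3 and the design text anti-H3K4me. The cultures hold muscle precursors and no innervated fibers. Each antibody gave 1 library, the depth is unknown, and there is no replicate, which leaves all values below as descriptions of these 2 libraries without a test.

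At the mature NMJ, the receptor is a pentamer of α, β, δ and ε subunits that opens its channel when acetylcholine binds. Before birth the γ subunit takes the place of ε, and the exchange of both is a classical step of synapse maturation. Nerve-derived agrin binds Lrp4, which activates the kinase MuSK. Dok7 is the adaptor that MuSK needs inside the muscle cell, rapsyn ties the receptors into clusters, and ColQ is the collagen tail that anchors acetylcholinesterase in the synaptic cleft. In muscle cells, E-boxes (CANNTG) bind myogenic factors of the Myod1 family, and N-boxes (CCGGAA) bind Ets factors linked to transcription in nuclei beneath the synapse.

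Promoter sequences are shown for the subunit genes Chrna1, Chrnb1 and Chrne, because the first and the second lie under both peaks and the third under neither. They are the bases upstream of the outermost annotated start, 5′ to 3′ on the minus strand of GRCm38.p6 as given by RefSeq, at chr2:73580339-73580588 for Chrna1, chr11:69795967-69796187 for Chrnb1 and chr11:70619217-70619444 for Chrne. Capitals mark the letters CANNTG and CCGGAA on either strand.
Chrna1: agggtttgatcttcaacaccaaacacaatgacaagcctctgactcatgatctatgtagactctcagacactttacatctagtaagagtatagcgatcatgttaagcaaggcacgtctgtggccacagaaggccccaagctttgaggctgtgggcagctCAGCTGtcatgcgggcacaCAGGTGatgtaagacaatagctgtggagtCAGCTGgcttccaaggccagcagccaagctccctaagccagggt
Chrnb1: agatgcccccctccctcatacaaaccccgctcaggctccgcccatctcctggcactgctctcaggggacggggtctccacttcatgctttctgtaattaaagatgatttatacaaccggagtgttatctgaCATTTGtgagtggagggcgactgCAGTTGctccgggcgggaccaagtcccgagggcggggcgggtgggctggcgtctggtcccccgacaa
Chrne: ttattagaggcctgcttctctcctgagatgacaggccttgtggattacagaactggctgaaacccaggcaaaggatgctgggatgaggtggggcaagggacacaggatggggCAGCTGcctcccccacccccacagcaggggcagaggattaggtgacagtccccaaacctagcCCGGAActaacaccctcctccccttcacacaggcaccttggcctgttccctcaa
The Chrna1 promoter holds 3 E-boxes, which begin 92, 73 and 44 bases before the TSS (the base numbered -1 precedes the TSS), and no N-box. The Chrne promoter holds 1 E-box at -138 and 1 N-box at -76.

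At the promoter, defined as TSS±1 kb of every curated transcript, Spin1 was found at 8 of the 10 genes, against 50.7% of all genes and 56.7% of the 21000 protein-coding genes. An H3K4me3 peak was found at the same 8 genes, against 61.9% of all and 68.0% of protein-coding genes. Both peaks together therefore occurred at these 8 promoters, against 50.6% of all and 56.7% of protein-coding genes. The genes with both peaks were Chrna1, Chrnb1, Chrnd, Chrng, Musk, Rapsn, Dok7 and Lrp4, and the genes with neither were Chrne and Colq. Each of the 2 groups of 5 genes, the subunits and the clustering and matrix genes, thus held 4 promoters with both peaks and 1 with neither. In a bulk culture, a peak present in few cells and a weak peak present in all of them cannot be told apart.

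The division was not close to the edge of the window. In all 8 genes, the TSS itself lay inside a Spin1 peak and inside an H3K4me3 peak, as did the TSS of 53.8% and 65.7% of protein-coding genes. The nearest H3K4me3 peak to the Chrne TSS began 3151 bp downstream, and the nearest Spin1 peak 11902 bp downstream. For Colq, the nearest peaks lay upstream at distances of 62237 bp (H3K4me3) and 62917 bp (Spin1). Among protein-coding genes, 39.0% have a TSS more than 10 kb from any Spin1 peak, and 27.0% more than 10 kb from any H3K4me3 peak.

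**Figure D1:**
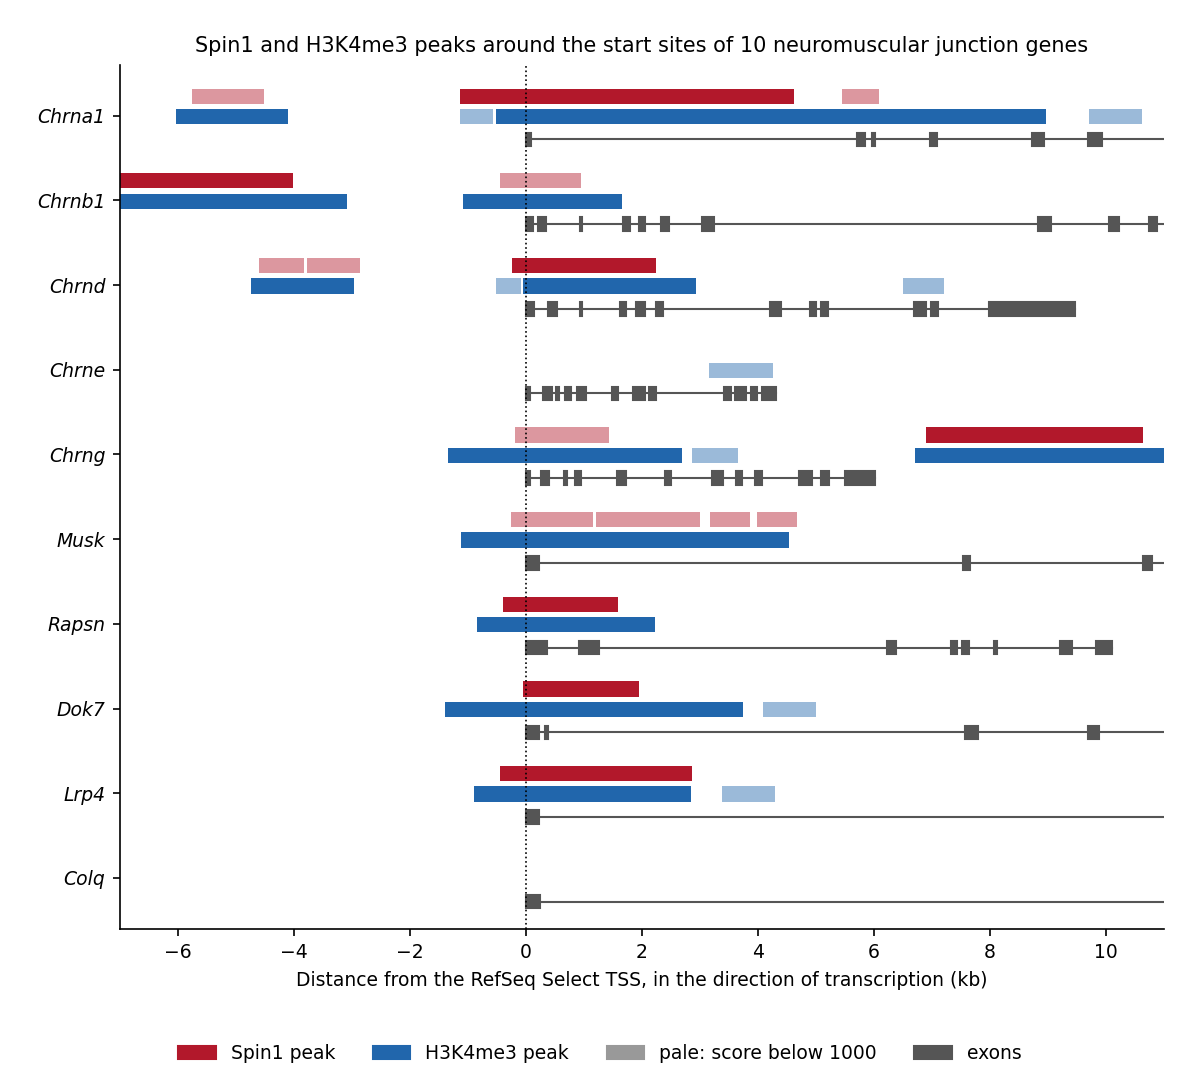
Peaks of Spin1 (upper bars) and H3K4me3 (lower bars) around the TSS of the 10 genes, with the exons of the RefSeq Select transcript below. The x axis gives the distance from the TSS in kb along the direction of transcription, and pale bars are peaks with a score below 1000. Both peaks cover the TSS of 8 genes, and Chrne and Colq have none there.

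Chrna1, the gene of the acetylcholine-binding α subunit, is located on the minus strand of chromosome 2 (73563281 to 73580338) and carried the widest promoter peaks of the 10 genes. Its Spin1 peak was 5761 bp wide, from 1132 bp upstream to 4628 bp downstream of the TSS, with a score of 3100. The score, which the peak caller derives as -log10 of its p-value multiplied by 10, accumulates at 3100. The H3K4me3 peak measured 9490 bp and reached 8965 bp into the gene, over 5 of the 9 exons. Among all protein-coding genes with a promoter peak, 98.7% had a narrower Spin1 peak and 98.7% a narrower H3K4me3 peak. A small H3K4me3 peak of 569 bp with a score of 79.0 preceded the main one.

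Within 50 kb of Chrna1 lay 5 further Spin1 peaks. The one with the highest score, 3100, measured 4522 bp and lay at the promoter of Wipf1, 49494 bp downstream of the Chrna1 TSS. The other 4 had lower scores. One of 651 bp, with a score of 146, began 5442 bp downstream of the TSS at exon 2. Another of 1236 bp, with a score of 549, began at -5755 bp, upstream of the gene, under an H3K4me3 peak with a score of 3100. It overlaps the promoter of Chrna1os, a neighbour of Chrna1 on the opposite strand, and ChIP-seq does not assign it to one of the genes. The remaining upstream Spin1 peaks, at -10878 and -27940 bp, had scores of 109 and 143 and no curated TSS within 1 kb. Each overlapped a weak H3K4me3 peak, with scores of 218 and 73.6, over 565 and 68 bp. The center of the peak at -27940 bp lies in the gene Chn1os3.

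Chrnb1, which encodes the β subunit, is found on the minus strand of chromosome 11 (69784036 to 69795966). Its promoter had a Spin1 peak of 1410 bp with a score of 844 and an H3K4me3 peak of 2737 bp with a score of 3100. This Spin1 peak was the narrowest of the 8, and 15.0% of protein-coding genes with a promoter peak had a narrower one. All other peaks within 50 kb of Chrnb1, 6 of Spin1 and 6 of H3K4me3, were located at promoters of other genes.

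Chrnd and Chrng, the genes of the δ and the fetal γ subunit, follow each other on the plus strand of chromosome 1, with their TSSs at 87190597 and 87205811. The Spin1 peak at the Chrnd promoter measured 2492 bp and scored 2717, and that at the Chrng promoter measured 1625 bp and scored 760. Of the 8 promoter scores, that of Chrng was the lowest, and 16.4% of protein-coding genes with a promoter peak had a lower one. The widest H3K4me3 peaks went the other way in width, with 2987 bp at Chrnd and 4036 bp at Chrng, both with a score of 3100. The width at Chrnd leaves out a small H3K4me3 peak of 439 bp with a score of 103, from -523 to -85 bp, just before the main one. The peaks of both genes were separate.

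Upstream of Chrnd, an H3K4me3 peak of 1777 bp with a score of 3100 extended from -4750 to -2974 bp. Spin1 peaks of 792 and 915 bp, with scores of 250 and 414, lay over it. No curated TSS of any gene is found within 1 kb of these peaks, and their centers fall into the gene Prss56, which ends before the Chrnd TSS. The next gene downstream, Eif4e2, had both peaks with scores of 3100, whereas Ecel1 on the other side had an H3K4me3 peak without Spin1 at its promoter.

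**Figure D2:**
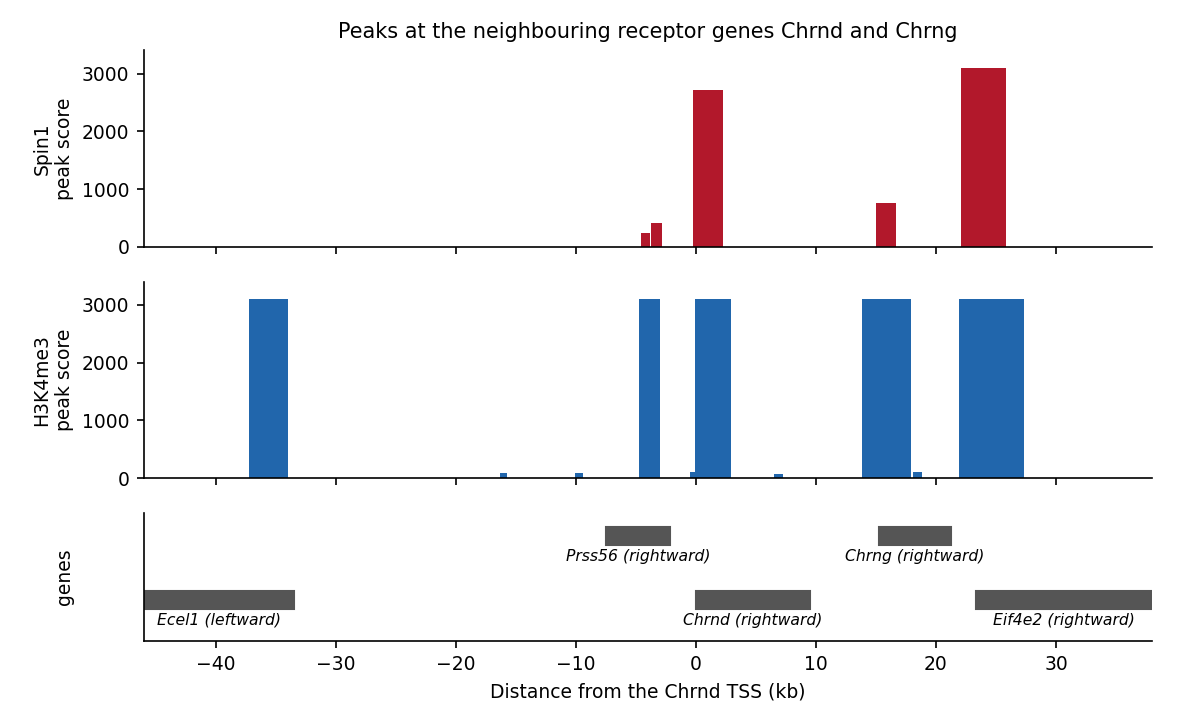
Scores of Spin1 (upper panel) and H3K4me3 peaks (middle panel) against the distance from the Chrnd TSS in kb, with the protein-coding genes below and their direction of transcription in brackets. Bars span the width of a peak. Spin1 peaks stand at both receptor genes, at Eif4e2 and upstream of Chrnd within Prss56, and none stands at Ecel1.

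Chrne, the gene of the adult ε subunit, occupies 4331 bp on the minus strand of chromosome 11 (70614883 to 70619213). The only peak in the gene was an H3K4me3 peak of 1101 bp with a score of 686, from 70614943 to 70616043. It covers the last exons of Chrne and lies at the promoter of 4930544D05Rik, a neighbouring gene transcribed in the opposite direction. No Spin1 peak overlapped it. The Spin1 peak nearest to the Chrne TSS, with a score of 106, was in the downstream gene Mink1. The next was a Spin1 peak of 2728 bp with a score of 3100 at the promoters of Slc25a11 and Rnf167 on the upstream side, which ended at -26616 bp. Chrne and the fetal subunit gene Chrng, which replace each other at the synapse, thus differed in both lists in these cells.

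Among the clustering genes, Musk had the most Spin1 peaks within the gene. The gene spans 92120 bp on the plus strand of chromosome 4, and 4 Spin1 peaks followed each other from -264 to 4675 bp around its first exon and in its first intron. Their scores were 910, 958, 103 and 102, and the second peak, which does not touch the promoter window, measured 1799 bp against 1425 bp of the first. A single H3K4me3 peak of 5666 bp with a score of 3100 spanned almost the same stretch, from -1128 to 4537 bp. It was wider than the H3K4me3 peaks of 89.4% of the protein-coding genes that have one at the promoter. Within 50 kb of Musk no peak of either list overlapped a promoter of another gene.

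Lrp4, the agrin receptor gene with 38 exons on chromosome 2 (91457456 to 91513901), showed a Spin1 peak of 3305 bp with a score of 3100. Its H3K4me3 peak of 3732 bp had nearly the same downstream end, 2841 bp from the TSS against 2856 bp for Spin1. Lrp4 and Chrna1 were the only 2 of the 8 promoters with a Spin1 score of 3100, a value reached at 48.9% of the Spin1-occupied promoters of protein-coding genes.

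Dok7, on chromosome 5 (35056571 to 35087839), has 2 curated TSSs. Its Spin1 peak of 1996 bp with a score of 1296 began 55 bp upstream of the RefSeq Select TSS. The H3K4me3 peak of 5138 bp, by contrast, began 1393 bp upstream. Of the 8 genes, Dok7 had the least Spin1 before the RefSeq Select TSS and the most H3K4me3. Rapsn, on chromosome 2 (91035472 to 91045729), had a Spin1 peak of 1980 bp with a score of 2041 and an H3K4me3 peak of 3077 bp. A further Spin1 peak of 1375 bp with a score of 499 lay 26404 bp downstream of the Rapsn TSS, within Slc39a13 and under an H3K4me3 peak of 4022 bp with a score of 3100, but away from any curated TSS.

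Colq, which spans 54782 bp on the minus strand of chromosome 14, contained no peak of either list. The only peaks within 50 kb of the gene were a Spin1 peak of 3531 bp and an H3K4me3 peak of 6326 bp at the promoters of Mettl6 and Eaf1, beyond its 3′ end.

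Taking the 8 promoters as a group, the median width of the Spin1 peak was 1988 bp, against 2295 bp over the 11911 protein-coding genes with such a peak. The median Spin1 score was 1668.5, against 2992.0. H3K4me3 showed the opposite order, with a median width of 3884 bp against 3250 bp over 14281 genes. The sets are unlike, since 2378 of the 14281 genes had H3K4me3 without Spin1, whereas all 8 promoters had both. Medians over promoters with both peaks are given below by base composition. The score of the H3K4me3 peak was 3100 at all 8 promoters and 3100 or more at 89.7% of the 14281 genes, and therefore separates nothing. The Spin1 peak lay inside H3K4me3 over 98.8 to 100% of its width, and 92.2% of all Spin1-occupied protein-coding promoters had it fully inside.

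Both peaks of all 8 genes extended further downstream than upstream of the TSS. The same direction was seen at 82.3% of protein-coding genes for Spin1 and at 83.8% for H3K4me3, so it is the common form. The upstream reach of Spin1 ranged from 55 bp at Dok7 to 455 bp at Chrnb1, apart from Chrna1 with 1132 bp, and was thus below the median of 777 bp over protein-coding genes in 7 of the 8.

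**Figure D3:**
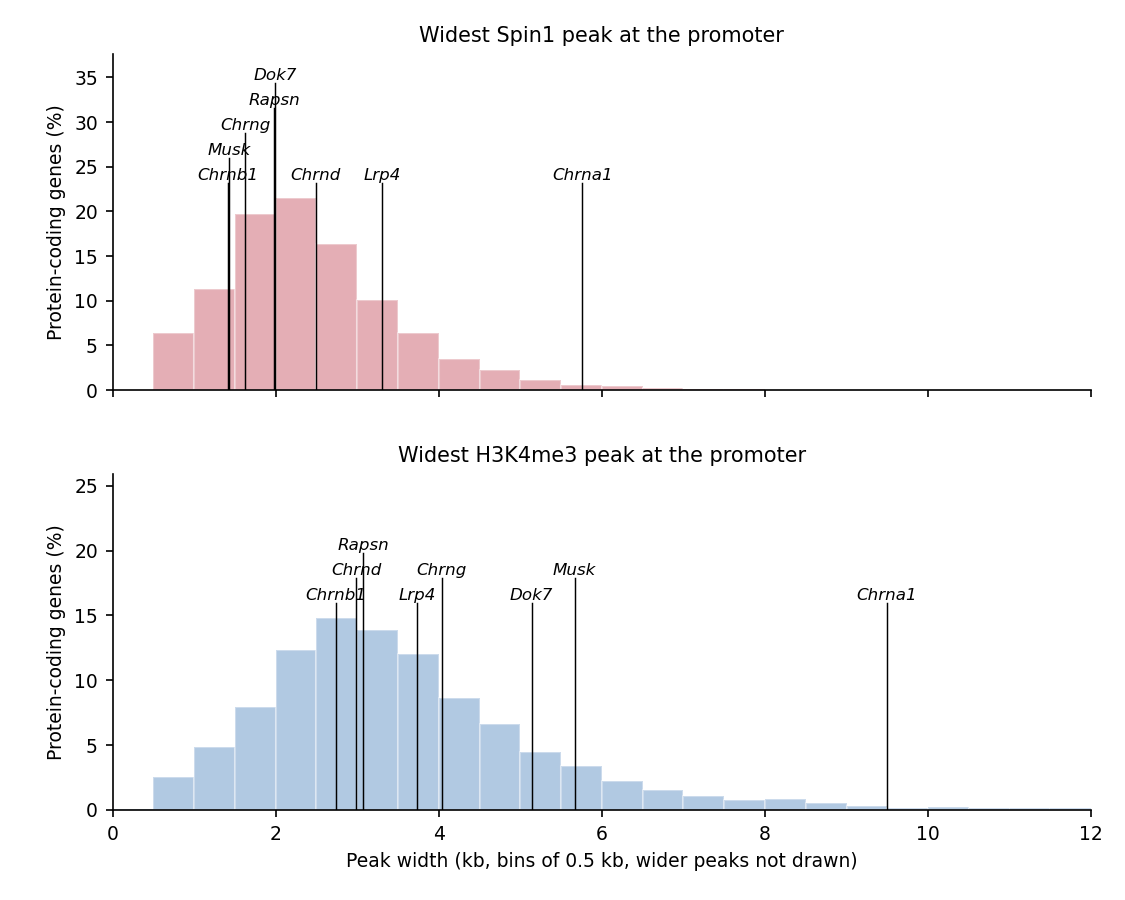
Width in kb of the widest Spin1 peak (upper panel) and H3K4me3 peak (lower panel) at the promoter, as the percent of protein-coding genes per 0.5 kb bin, with a vertical line at each of the 8 receptor and junction genes that have one. The height of a line has no meaning. Chrna1 lies in the right tail of both panels, with 5761 and 9490 bp, and the Spin1 widths of the other 7 genes range from 1410 to 3305 bp.

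Within the gene bodies, which include the part of the promoter window behind the TSS, Spin1 was found in 8 of the 10 genes, against 59.2% of protein-coding genes, and H3K4me3 in 9, against 71.5%. The ninth gene was Chrne, through the peak at its 3′ end. When peaks at a gene's own promoter were left out, Spin1 remained in Chrna1 and Musk only, 2 of 10 against 11.9% of protein-coding genes. H3K4me3 remained in 7 of 10, against 25.5%. These were Chrna1, Chrnd, Chrne, Chrng, Musk, Dok7 and Lrp4. Apart from the Chrne peak, the 9 body peaks had scores between 67.1 and 314 and none overlapped Spin1, a share not given here for the body peaks of other genes. The largest of them was 1434 bp wide, in intron 4 of Dok7.

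Within 50 kb on each side, the 10 genes had 37 distinct Spin1 and 59 distinct H3K4me3 peaks. The number of Spin1 peaks per gene ranged from 1 at Colq to 7 at Chrnb1 with a median of 4.5, against 2 over protein-coding genes. For H3K4me3 it ranged from 1 at Colq to 12 at Chrnd with a median of 7, against 3. Peaks shared by the neighbours Chrnd and Chrng, among them all 5 Spin1 peaks of each, enter these medians under both genes. Most of the Spin1 peaks away from the genes belonged to neighbours, since 20 of the 37 overlapped the promoter of another gene (the Chrnd and Chrng peaks are neighbours of each other and count here too), and 7 were at no curated promoter and outside the receptor or junction gene itself. The latter had scores from 106 to 499, against a median of 3100 for those at neighbouring promoters. Of the 37 Spin1 peaks, 36 overlapped H3K4me3, and the exception was a peak in Mink1 with a score of 117, 38577 bp downstream of the Chrne TSS. Of the 59 H3K4me3 peaks, 32 overlapped Spin1. The shares over all peaks of the 2 lists are not given here, so these counts are not read as particular to the 10 genes. At promoters, Spin1 without H3K4me3 was rare in general, with 21 of 26182 genes.

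The base composition of the promoters set the 10 genes apart from each other. The CpG observed/expected ratio, which is low where CpG dinucleotides are depleted, was computed over TSS±0.5 kb and had a median of 0.601 over 20963 protein-coding genes. Lrp4 (0.747), Chrnb1 (0.636) and Dok7 (0.628) were above this median. The other 7 genes were below 0.4, with 0.320 at Musk, 0.231 at Chrng, 0.227 at Chrna1, 0.205 at Rapsn, 0.189 at Colq, 0.138 at Chrnd and 0.134 at Chrne. GC content followed another order, with 46.5% at Musk as the lowest and 57.3% at Chrng as the highest of these 7, against a median of 56.0%.

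Across protein-coding genes, the share with both peaks rose with the CpG ratio, from 3.62% below 0.2 to 11.5% between 0.2 and 0.3, 25.9% between 0.3 and 0.4, 86.8% between 0.6 and 0.8, and 95.3% above. Below a ratio of 0.4, a limit chosen after the values were seen, 730 of 7525 genes (9.70%) had both peaks. Of the 7 receptor and junction genes in this class, 5 had both, namely Chrna1, Chrnd, Chrng, Musk and Rapsn. All 3 genes above it had both peaks, in a class where 83% of genes did. Chrnd and Chrne, with nearly the same ratio, stood on different sides.

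The 5 promoters with a low ratio can also be set beside the other occupied promoters of their class. Over all 730, the median Spin1 peak was 1687.5 bp wide with a score of 906, and the 5 genes had medians of 1980 bp and 2041. For H3K4me3 the median widths were 3008.5 bp over the class and 4036 bp over the 5 genes. Chrna1 remained near the upper end, as 98.1% of the class had a narrower Spin1 peak, while 40.3% had a narrower one than Musk. Of the 1358 genes of this class with H3K4me3 at the promoter, 53.8% also had Spin1. Among the 12901 such genes with a higher ratio, the share was 86.5%. The 5 junction genes were taken here for having both peaks, so their place in the 53.8% is given by that choice. At a ratio of 0.4 or more, the 11154 promoters with both peaks had a median H3K4me3 width of 3564 bp. The median over Lrp4, Chrnb1 and Dok7 was 3732 bp.

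**Figure D4:**
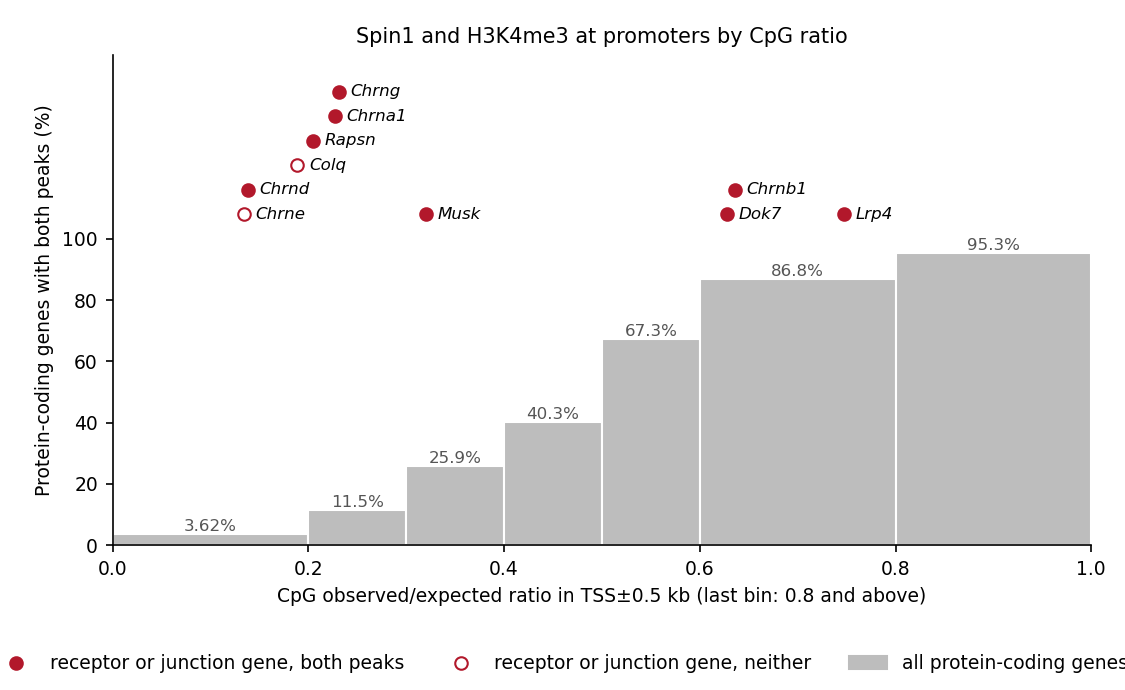
Percent of protein-coding genes with both peaks at the promoter (bars) by the CpG observed/expected ratio in TSS±0.5 kb, and the ratio of each of the 10 genes (circles, filled with both peaks and open with neither; their height has no meaning). Of the 7 genes below 0.4, 5 are filled, where the bars stand at 3.62, 11.5 and 25.9%.

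Short motifs were counted on both strands in the 250 bases before and 50 after the TSS, where the RefSeq promoter table matched 6 of the 10 genes (Chrna1, Chrnb1, Chrne, Chrng, Musk and Dok7). The 4 genes that did not match were Chrnd, Rapsn, Lrp4 and Colq. CANNTG occurred in all 6 promoters, as in 68.3% of 16473 promoters. Its count was 3 each in Chrna1, Chrnb1, Chrng and Musk and 1 each in Chrne and Dok7, against a mean of 1.24. The Chrnb1 site at -29 lies just past the end of the sequence shown above. CAGCTG, which is part of CANNTG and a form bound by myogenic factors, occurred in Chrna1 and Chrng with 2 sites each and in Chrne and Musk with 1 each, and in 15.1% of all promoters. CACCTG, another part of CANNTG, was found in Chrna1 and Chrnb1 and in 19.1% of all promoters.

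CCGGAA was found only in Chrne among the 6, at -76, and in 20% of all promoters. The GC box GGGCGG was present in Chrnb1 (4 sites) and Dok7 (2 sites), the 2 matched promoters with a high CpG ratio, and in 49.2% of all promoters. TATAAA was present in Chrnb1 alone and in 13.2% of all promoters, and CCAAT in none of the 6 and in 39.3%. These are matches of letters in a fixed window, and Chrne shows that a CAGCTG letter match occurred without a peak of either list.

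Other genes of the NMJ were taken from a list of 42 that holds agrin and neuregulin signaling, the dystrophin-associated proteins of the synapse, laminins and kinases downstream of MuSK. Both peaks were found at 38 promoters, or 90.5%, against 56.7% of protein-coding genes. The CpG ratios of these genes are not given here, so they were not set beside genes of a like ratio. The share is therefore not read as particular to the NMJ. The widest H3K4me3 peaks were those of Plec (22300 bp), the gene of the cytoskeletal linker plectin, Prkar1a (7028 bp) and Cdk5 (6510 bp). Agrn, named here for its product agrin after its values were seen, had a Spin1 peak of 1128 bp with a score of 823. H3K4me3 without Spin1 was found at Ache, the gene of the esterase that ColQ anchors, and at Erbb4, a neuregulin receptor. Utrn, which encodes utrophin, and Scn4a, the muscle sodium channel gene, had neither peak at a curated TSS. With predicted RefSeq transcripts, an alternative added after the data were seen, Utrn had both peaks, Scn4a had H3K4me3 alone, and Ache, Erbb4, Chrne and Colq stayed as they were.

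The neuronal members of the receptor family differed from the muscle subunits. Of 11 neuronal subunit genes, 1 had both peaks, 5 had H3K4me3 alone and 5 had neither. The gene with both was Chrna7, with a Spin1 peak of 970 bp and a score of 297. The widest H3K4me3 peaks without Spin1 were at Chrna5 (1943 bp), Chrna4 (1739 bp) and Chrna3 (1577 bp). These peaks were narrower than the H3K4me3 peak at any of the 8 occupied muscle genes, the narrowest of which was 2737 bp. No gene of either kind had Spin1 alone, a state found at only 8 of the 21000 protein-coding genes.

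Genes of motor neurons, a cell type that these cultures should not hold, served as a comparison. They encode proteins of the motor nerve terminal, apart from Isl1 and Mnx1, which encode transcription factors. Of 7 genes, 6 had H3K4me3 alone, with widths up to 2716 bp at Mnx1, followed by 1833 bp at Syt2 and 1810 bp at both Chat and Slc18a3. The equal widths at Chat and Slc18a3 may come from the same peak, so the 6 genes need not be separate promoters. Isl1 had both peaks, with a Spin1 score of 485. Across protein-coding genes, H3K4me3 alone was found at 11.3% and neither peak at 32.0%.

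The promoters of marker genes of cell types were also examined. All 6 myoblast markers carried both peaks, against 56.7% of protein-coding genes. Their widest H3K4me3 peaks were at Pax7 (17266 bp), Itga7 (7648 bp) and Myf5 (7449 bp). Of 4 fibroblast markers, Pdgfra, Col1a1 and Col1a2 carried both, with H3K4me3 widths of 11546, 8411 and 7764 bp, and Dcn H3K4me3 alone. These promoter peaks therefore do not separate myoblasts from fibroblasts. None of 3 endothelial markers had Spin1, with H3K4me3 at Cdh5 and Kdr and nothing at Pecam1. The part of fibroblasts or other cells in the peaks of the 10 genes was not tested.

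**Figure D5:**
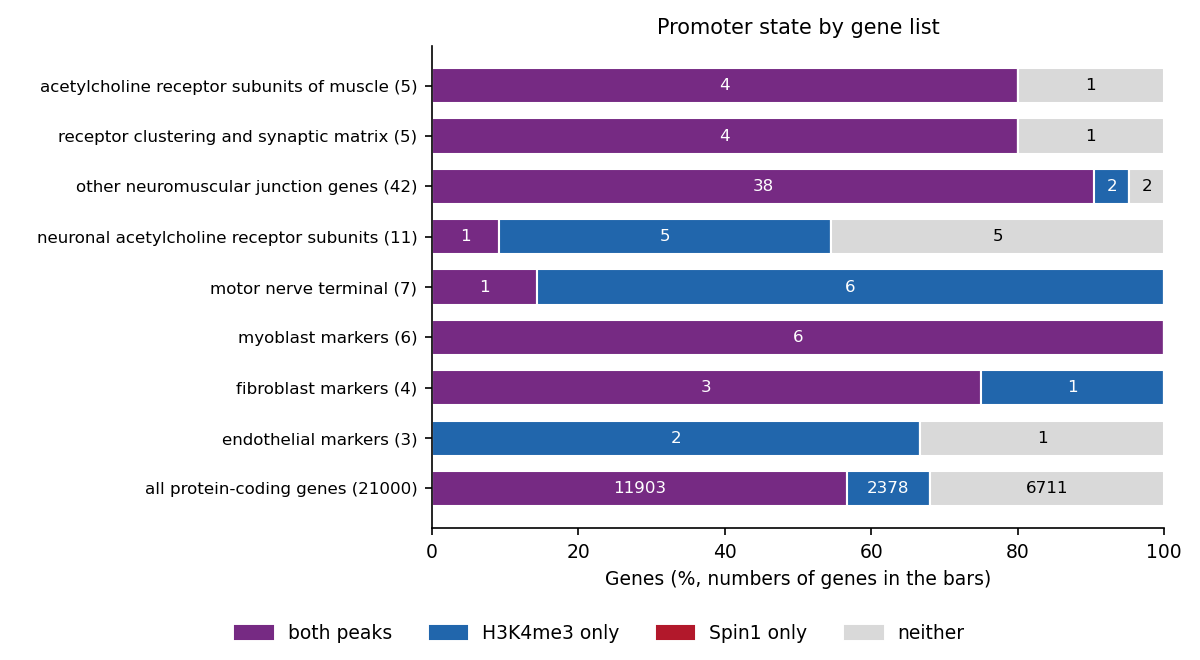
Percent of genes in each list with both peaks, H3K4me3 alone, Spin1 alone or neither at the promoter, with the number of genes in the bars and the size of the list in brackets. Both peaks are found at 4 of 5 genes in each group of junction genes and at 38 of 42 other NMJ genes, against 1 of 11 neuronal receptor genes.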

How the data were processed

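ChIP-seq peak lists of primary myoblasts were used for Spin1 and H3K4me3, with 1 library each. Per the study's methods, the authors aligned the paired-end reads with bowtie 2 to mm10, called peaks against input using MACS 1.4.2, and kept those whose false discovery rate did not exceed 1%. What was deposited are peak positions and a score (-log10 of the p-value multiplied by 10), which grows with depth and width and accumulates at 3100. The lists hold 17106 Spin1 and 30763 H3K4me3 peaks and no read counts, so the depth is unknown and weak peaks may be missed. The input and the 22 RNA-seq libraries were not analysed here.

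Peak starts were converted to count from 1 and compared with 45756 curated RefSeq transcripts of GRCm38. Occupancy of a gene required 1 bp or more of a peak inside TSS±1 kb of any transcript. Distances refer to the RefSeq Select TSS, percentiles to protein-coding genes with a promoter peak, and scores were compared only within a list. The genes, the lists, the rule for naming (all 10 genes, their neighbours with a promoter peak and, per list, the genes of the rarest state and the 3 widest H3K4me3 peaks of the others) were chosen with earlier results of these data known. Results on 1 list of cell type markers are not reported here. Counting was tested on simulated data. Alternatives of window, score, transcript set, overlap rule and flank were run. Without replicates, no test was made. Python 3.11.15, NumPy 2.4.6, pandas 2.3.3, pysam 0.24.0 and matplotlib 3.10.9 were used.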

Additional observations from a re-analysis of the deposited data

How the results depend on the processing

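The number of receptor and junction genes with H3K4me3 at the promoter was 7 or 8 under all 9 alternatives, and in the gene body 7 to 9 under all 4. Spin1 at the promoter remained at 8 genes under 7 alternatives, fell to 6 when the peak center had to lie in the window, and to 5 with the highest 50% of scores, where Chrnb1, Chrng and Musk were lost. Both peaks were then found at 5 genes, and also at 5 with the center rule, where the wide or downstream peaks of Chrna1, Musk and Lrp4 were lost. In the gene body, Spin1 was found in 5 genes with the highest 50% of scores and in 2 with peaks at the own promoter left out. Within 50 kb, Spin1 peaks numbered 19 with the highest scores, 19 without promoters of other genes and 59 with 100 kb on each side, and H3K4me3 peaks 28, 39 and 90.

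The share of all genes with Spin1, H3K4me3 and both peaks moved as follows. It was 50.1% and 61.2% with TSS±0.5 kb (both peaks within the interval), 51.4%, 63.0% and 51.3% with TSS±2 kb, 49.7%, 61.1% and 49.6% from 1 kb upstream to 0.1 kb downstream, 55.8%, 67.2% and 55.8% with the RefSeq Select TSS, 38.1%, 56.6% and 38.1% with the highest 50% of scores, 46.5%, 50.5% and 39.7% with the center rule, 46.2%, 58.7% and 46.2% when peaks had to cover 50% of the window, and 56.7%, 68.0% and 56.7% for protein-coding genes. A score of at least 100 moved the H3K4me3 share to 61.0%. Of 72 alternatives over 10 results, 37 stayed within the set limits (1.5 times for a count, the 95% Wilson interval for a share) and 35 did not. Adding predicted transcripts, chosen after the data were seen, changed none of the 3 promoter counts. The score cap, the unknown depth and 1 library per antibody limit all ranks by score. No paired analysis was possible because no result comes from a test and each antibody has 1 library.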

Other observations

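The neighbourhood of the junction genes held several promoters of other genes with both peaks. The widest Spin1 peak within 50 kb of any of the 10 genes measured 9189 bp and lay upstream of Chrne, from -40429 to -31241 bp, over the promoters of Pfn1, the gene of the actin-binding protein profilin, and Eno3, the gene of the muscle form of enolase. An H3K4me3 peak of 15319 bp joined it with the promoters of Slc25a11 and Rnf167. Upstream of Chrnb1, a Spin1 peak of 4419 bp with a score of 1859 covered the promoter of Fgf11, and downstream a peak of 3421 bp with a score of 2467 covered that of Polr2a, the gene of the largest subunit of RNA polymerase II. Chrne, without a promoter peak, therefore had 5 Spin1 peaks within 50 kb, as many as Chrnd and Chrng, whose 5 peaks are the same ones.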
